A study of Homo sapiens with 9 samples.

Results

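The genes examined here encode proteins of the elastic fiber and its microfibrils: the fibulins FBLN1, FBLN5, EFEMP1 and EFEMP2, the fibrillins FBN1 and FBN2, tropoelastin (ELN), and the lysyl oxidases LOX and LOXL1. These 9 genes were taken by name from the 60606 genes of the table. FBLN5 was in addition selected on its measured values, because it was among the genes raised most in both irradiated lines. Its level against U87 is therefore given as a description without a test, and it is left out of the counts of those comparisons. The other 8 genes were taken as its family and partners.

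Elastic fibers consist of an elastin core laid down on a scaffold of fibrillin microfibrils. Fibulins bind tropoelastin and guide its deposition onto that scaffold, and lysyl oxidases oxidise lysine residues of elastin and collagen so that the chains become cross-linked. The microfibrils also hold latent TGF-beta binding proteins, which keep this growth factor stored in the matrix.

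RNA was sequenced from 3 lines, with 3 libraries each. U87 is an established human glioblastoma line, labelled wild-type and grown in DMEM with fetal bovine serum. GSCs are stem cells derived from U87, kept serum-free in neural stem cell medium (DMEM/F12 with B27, bFGF and EGF) and then irradiated repeatedly to select radioresistant cells, and Diff are cells differentiated from these GSCs in serum, taken from clonal communities and grown in DMEM with fetal bovine serum. All 3 lines thus descend from the same tumour line, and GSCs differ from U87 in stem cell derivation, irradiation, selection and medium together, which cannot be told apart. Diff and GSCs share the irradiation and differ in medium, differentiation state and the choice of clones, which cannot be told apart. Diff and U87 share the medium but differ in irradiation, derivation and the choice of clones. The study's methods speak of biological replicates for its data in general, and the sample records number 3 replicates per line without saying whether they were separate cultures. The p-values measure the spread between these libraries, which may be technical.

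Levels are in TPM, transcripts of a gene per 1000000 transcripts with gene length divided out, so that genes can be compared with each other. Changes are differences of log2(TPM + 1) from limma over all 22909 genes with a mean TPM over 1, and understate the change of genes with low TPM. A gene was called higher or lower when its Benjamini-Hochberg adjusted p-value was under 0.05 and its log2 fold change over 1 in size. Of the 9 genes, 7 passed the filter on low values; FBLN1 and EFEMP1 did not.

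GSCs replicate 3 lay farthest from its group, at root mean square log2 distances of 0.531 and 0.543 from the other GSCs libraries, which were 0.484 apart. Genes of the mitochondrial genome held 25.9% to 31.8% of all TPM per library. Astrocytic and glioma markers, mostly VIM and CD44, summed to 2050 to 2113 TPM in U87, 1526 to 1810 in GSCs and 900.4 to 957.8 in Diff, and SOX2 was under 1 TPM in every library. Stem-like markers summed to 32.4 to 36.4, 27.5 to 29.8 and 15.6 to 17.3 TPM, a sum that is mostly NES (means 33.0, 22.6 and 13.5 TPM). The other 3 stem-like markers had higher means in GSCs than in U87: FABP7 averaged 0.731 TPM in U87, 4.91 in GSCs and 2.86 in Diff and was called higher in both derived lines (log2 fold change 1.77 and 1.16, adjusted p = 2.66e-05 and 0.000483, limma), and SOX2 averaged 0.0383, 0.879 and 0.153 TPM. Neuronal markers summed to 10.2 to 13.7, 12.7 to 13.2 and 26.5 to 27.5 TPM, with DCX under 0.1 throughout. The higher sum in Diff was mostly MAP2 (means 7.95, 8.22 and 21.7 TPM). TUBB3 (3.74, 4.66 and 5.22 TPM) was not called in any comparison. The leukocyte markers summed to under 1 TPM in every library, and the fibroblast marker THY1 was under 0.1 TPM throughout.

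To show the DNA before the start sites of the genes with the largest changes, the upstream sequences of FBLN5, FBN1, FBN2 and LOX were read from RefSeq (GRCh38.p14). Each line is the longest part of the 250 bases before the RefSeq start that lies outside annotated exons of the gene, written 5′ to 3′ on the gene's strand. Capitals mark matches to the motifs named after the sequences.
FBLN5, chr14:91947824-91947934, minus strand: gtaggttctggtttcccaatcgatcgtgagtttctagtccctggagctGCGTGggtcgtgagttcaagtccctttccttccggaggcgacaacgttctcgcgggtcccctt
FBN1, chr15:48644971-48645220, minus strand: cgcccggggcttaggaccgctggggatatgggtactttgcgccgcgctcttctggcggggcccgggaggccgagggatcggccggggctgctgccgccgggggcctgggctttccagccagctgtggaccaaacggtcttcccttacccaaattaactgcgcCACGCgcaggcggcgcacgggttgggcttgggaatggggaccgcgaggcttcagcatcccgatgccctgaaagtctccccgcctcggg
FBN2, chr5:128538246-128538495, minus strand: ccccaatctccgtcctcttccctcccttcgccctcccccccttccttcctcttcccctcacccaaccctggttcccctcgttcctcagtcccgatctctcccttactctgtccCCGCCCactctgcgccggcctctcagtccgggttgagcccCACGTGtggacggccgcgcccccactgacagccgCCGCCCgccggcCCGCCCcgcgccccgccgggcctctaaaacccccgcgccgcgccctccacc
LOX, chr5:122078361-122078509, minus strand: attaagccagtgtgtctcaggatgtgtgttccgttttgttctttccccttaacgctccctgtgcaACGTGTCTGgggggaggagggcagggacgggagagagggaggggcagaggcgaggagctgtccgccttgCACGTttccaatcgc

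Both strands of the 250 bases were searched for 5 motifs. The GC box was spelled GGGCGG, the binding word of SP1-type factors. The hypoxia response core was spelled ACGTG, or with G in its first place. The SMAD element, a word of TGF-beta signalling, was spelled CAGAC. The AP-1 site was spelled TGANTCA and the TATA box was searched as TATAAA. FBLN5 held 3 GC boxes and 4 hypoxia response cores, of which 1 core lies in the printed stretch. FBN1 held 1 hypoxia response core and no other match. FBN2 held 3 GC boxes and 2 hypoxia response cores, which are the same palindrome read on each strand. LOX held 1 GC box, 4 hypoxia response cores and 1 SMAD element, of which 2 cores and the SMAD element lie in the printed stretch. This element overlaps a core by 1 base. All 4 genes held the hypoxia response core, a short word found in 43.2% of all 35116 promoters of this length. The other genes with a promoter entry, FBLN1, EFEMP2 and LOXL1, held no such core, so that 4 of 7 held it. FBLN1, EFEMP2 and LOXL1 each held the SMAD element, as LOX did. FBLN1 and EFEMP2 held the GC box, as FBLN5, FBN2 and LOX did. None of the 7 held the TATA box letters, present in 10.7% of all promoters, or those of the AP-1 site, present in 6.57%. Of all promoters, 42.6% held the GC box and 38.0% the SMAD element. Whether any motif goes with the changes was not tested. A match describes the letters and not a bound site. A promoter entry was found for 7 of the 9 genes.

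FBLN5 covered the widest range of the 7 tested genes on the log2 scale, which follows from its choice by these values and is no result. It encodes fibulin-5, a secreted protein that binds elastin, integrins and LOXL1. The gene lies on the minus strand at chr14:91869412-91947987 (GRCh38, GENCODE 29). In U87 it was near the lower end of the scale, at 0.78, 0.51 and 0.65 TPM in replicates 1 to 3. In GSCs it stood at 141.56, 142.10 and 141.45 TPM, and in Diff at 47.42, 49.20 and 45.24 TPM. No library of one line overlapped with another line, and the order was GSCs, Diff, U87. The mean in GSCs (142 ± 0.350 TPM, SD, n = 3) was 219 times and that in Diff (47.3 ± 1.98) 73.2 times that in U87 (0.646 ± 0.136). On the log2(TPM + 1) scale these changes were 6.44 and 4.88, the 6th and 11th highest of 22909 tested genes, which restates how the gene was chosen.

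Diff against GSCs was not used to choose FBLN5 and could be tested. FBLN5 was lower in Diff by a log2 fold change of -1.56 ± 0.0729 (SE; 95% interval -1.73 to -1.40), with an adjusted p of 2.12e-06 from limma. The 3 Diff libraries held 3.00 times less FBLN5 than the GSCs on average, a gap wider than the spread within either line. The endothelial markers were VWF, KDR, PECAM1 and CDH5. Their sums ran from 8.75 to 10.0 TPM in U87, 32.8 to 37.9 in GSCs and 12.4 to 16.2 in Diff. This is the order of lines of FBLN5, whose place above U87 follows from its choice. Of the 4 genes, 2 in U87 and 3 in GSCs and Diff had a mean over 1 TPM. PECAM1 was alike in U87 and Diff (means 2.77 and 2.92 TPM, adjusted p = 0.841, limma) and averaged 6.25 in GSCs. VWF (means 0.527 and 1.74 TPM) and KDR (5.97 and 9.56) were higher in Diff than in U87, though not called. CDH5 was under 1 TPM in every library. The part of the endothelial markers in the level of FBLN5 was not tested.

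**Figure D1:**
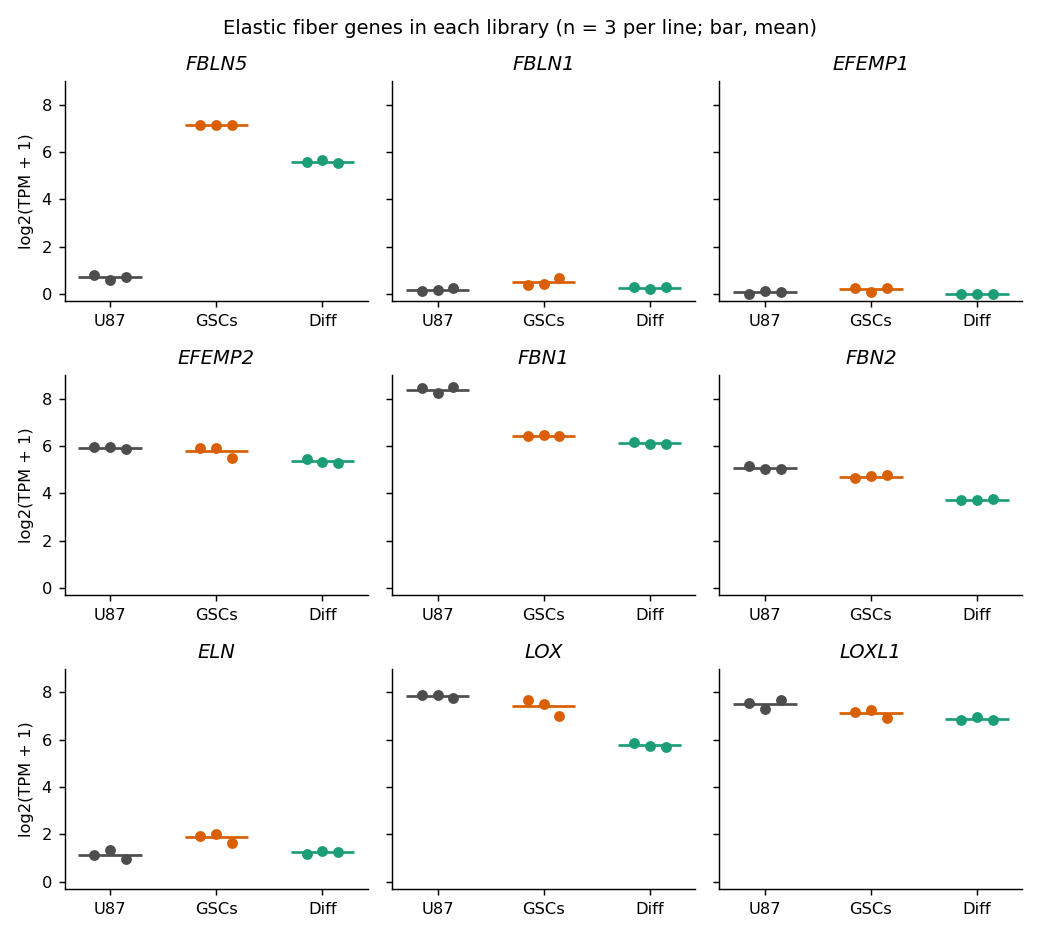
Level of each of the 9 genes in each library, as log2(TPM + 1) on a common axis; points are libraries in the order of replicates and bars are means of 3. FBLN5 lies under 1 in U87 and about 7 in GSCs, while FBN1, FBN2, EFEMP2, LOX and LOXL1 have their lowest mean in Diff, and FBLN1 and EFEMP1 stay under 1 TPM in every library.

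The other fibulins were taken by name and not by their levels. EFEMP2 encodes fibulin-4, which brings lysyl oxidase to tropoelastin. It measured 60.80, 60.53 and 57.78 TPM in U87, 58.71, 59.63 and 43.95 in GSCs, and 43.21, 39.51 and 37.50 in Diff. U87 and GSCs overlapped, and GSCs replicate 3 lay close to Diff. EFEMP2 was not called in any comparison: the log2 fold change was -0.57 in Diff against U87 (adjusted p = 0.00391, limma), -0.15 in GSCs against U87 (adjusted p = 0.30) and -0.41 in Diff against GSCs (adjusted p = 0.0209). The last adjusted p was 0.000524 without GSCs replicate 3, and 0.0724 and 0.0642 without GSCs replicate 1 and 2. It was 0.0612 and 0.0732 without Diff replicate 2 and 3. With median-ratio scaling it was 0.0604, and in a fit of only the 2 lines 0.0545. The value in GSCs against U87 ran from -0.23 without GSCs replicate 2 to -0.012 without GSCs replicate 3.

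FBLN1, which encodes fibulin-1 of basement membranes and elastic fibers, was under the filter. It was listed at 0.10, 0.14 and 0.19 TPM in U87, at 0.30, 0.34 and 0.62 in GSCs and at 0.22, 0.17 and 0.23 in Diff. EFEMP1 encodes fibulin-3, a protein related to EFEMP2. It was listed at 0, 0.11 and 0.06 TPM in U87, at 0.18, 0.07 and 0.21 in GSCs and at 0 in all 3 Diff libraries. No fold change is given for either gene at these levels. Of 5 further genes of the families (FBLN2, FBLN7, HMCN1, HMCN2 and FBN3), 1 was tested. HMCN1, the long fibulin relative hemicentin-1, measured 18.41, 18.42 and 19.10 TPM in U87, 30.72, 33.80 and 44.32 in GSCs and 60.20, 53.37 and 54.37 in Diff. It was called higher in Diff against U87 (log2 fold change 1.53 ± 0.121 SE, adjusted p = 1.64e-05), and in contrast to FBLN5 its level was highest in Diff. In GSCs against U87 its log2 fold change was 0.91 (adjusted p = 0.000288), which is inside the fold limit.

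FBN1 was lower in both derived lines than in U87. Fibrillin-1 forms the core of microfibrils in most tissues, and the gene lies on the minus strand at chr15:48408306-48645849. FBN1 measured 343.19, 300.93 and 353.92 TPM in U87, 84.28, 86.71 and 84.72 in GSCs and 70.91, 67.29 and 66.59 in Diff. The lowest U87 library was more than 3 times the highest of the other 6. FBN1 fell in GSCs by 1.95 ± 0.0645 on the log2 scale (SE, adjusted p = 8.28e-08, limma) and in Diff by 2.27 ± 0.0645 (adjusted p = 7.00e-08), which is 3.90 and 4.87 times less TPM. Between Diff and GSCs the log2 fold change was -0.32 (adjusted p = 0.00545), inside the fold limit although the libraries did not overlap. Summed fibroblast and pericyte markers ran from 747 to 886 TPM in U87, 203 to 227 in GSCs and 499 to 507 in Diff, with 6, 5 and 5 of 8 genes over a mean of 1 TPM. The members of this list did not share 1 order: COL1A1, which averaged 497 TPM in U87, 27.7 in GSCs and 157 in Diff, carried much of the difference between the sums, while LUM was highest in Diff (24.3 TPM against 1.36 in U87 and 0.841 in GSCs). Their part in the change of FBN1 was not tested. In bulk RNA, fewer cells with a transcript and less of it per cell cannot be told apart.

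FBN2, the fibrillin known for its expression in development, lies on the minus strand at chr5:128257909-128659185. It measured 34.01, 31.89 and 31.42 TPM in U87, 23.83, 25.47 and 26.03 in GSCs and 12.17, 12.15 and 12.61 in Diff, with no overlap between lines. FBN2 fell in Diff against U87 by 1.33 ± 0.0616 on the log2 scale (SE, adjusted p = 8.47e-07, limma), or 2.64 times in TPM. In GSCs against U87 the log2 fold change was -0.36 (adjusted p = 0.00133). Diff against GSCs gave -0.97 ± 0.0616 (adjusted p = 1.01e-05), just inside the fold limit, and it was called at -1.01 without GSCs replicate 1. In U87 the level of FBN1 was far above that of FBN2, with 333 ± 28.0 against 32.4 ± 1.38 TPM (SD, n = 3). Between U87 and Diff, the GSCs level of FBN1 thus lay close to that of Diff, and that of FBN2 closer to that of U87.

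ELN, the gene of tropoelastin, was low in every library. It lies on the plus strand at chr7:74027789-74069907. It measured 1.22, 1.51 and 0.94 TPM in U87, 2.78, 3.10 and 2.15 in GSCs and 1.24, 1.496 and 1.41 in Diff. The 3 GSCs libraries lay above all others, and U87 and Diff overlapped. In GSCs against U87 the mean TPM was 2.19 times as high and the log2 fold change 0.73 ± 0.161 (SE, adjusted p = 0.00536, limma), not called, and 0.83 without GSCs replicate 3. With a pseudocount of 0.1 in place of 1 the same difference was 1.08 (adjusted p = 0.00743) and was called. Diff against GSCs gave -0.62 (adjusted p = 0.0167), and Diff against U87 gave 0.10 (95% interval -0.26 to 0.47, adjusted p = 0.655). This last value was 0.010 without U87 replicate 3 and 0.20 without U87 replicate 2. FBLN5, whose protein binds tropoelastin, had a mean of 142 TPM in GSCs, where ELN had 2.68 ± 0.484.

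LOX separated Diff from both other lines. Lysyl oxidase is the enzyme that starts the cross-linking of elastin and collagen, and its gene lies on the minus strand at chr5:122063195-122078360. It measured 234.16, 234.42 and 215.87 TPM in U87, 204.35, 182.48 and 128.66 in GSCs and 56.45, 52.07 and 51.34 in Diff. Every Diff library was less than the lowest GSCs library, which was replicate 3. LOX fell in Diff against U87 by 2.08 ± 0.147 on the log2 scale (SE, adjusted p = 8.86e-06, limma), or 4.28 times in TPM. In Diff against GSCs the log2 fold change was -1.65 ± 0.147 (adjusted p = 6.48e-05), or 3.22 times less TPM, and was called lower; without GSCs replicate 3 it was -1.84 (adjusted p = 4.80e-06). In GSCs against U87 the log2 fold change was -0.43 (adjusted p = 0.0373), and -0.24 without GSCs replicate 3. That adjusted p rose to as much as 0.0944 when a U87 library was left out. The summed astrocytic and glioma markers had the same order of lines as LOX, U87 above GSCs above Diff. VIM (means 1640, 1214 and 616 TPM) and NES shared this order. The list as a whole did not: CD44 averaged 405 TPM in U87, 427 in GSCs and 296 in Diff, and SOX2 was highest in GSCs. The 3 stem-like markers other than NES were higher in GSCs than in U87. The part of these markers in the level of LOX was not tested.

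LOXL1, a lysyl oxidase that acts on elastin together with fibulin-5, changed less than LOX. The gene lies on the plus strand at chr15:73925989-73952137. It measured 185.51, 158.33 and 202.44 TPM in U87, 143.30, 151.66 and 118.41 in GSCs and 112.83, 122.14 and 113.18 in Diff. GSCs and Diff overlapped. LOXL1 was not called in any comparison, with log2 fold changes of -0.64 in Diff against U87 (adjusted p = 0.00182, limma), -0.40 in GSCs against U87 (adjusted p = 0.0159) and -0.24 in Diff against GSCs (95% interval -0.49 to 0.014, adjusted p = 0.132). Without GSCs replicate 3 the last value was -0.34 (adjusted p = 0.0293). Of its annotated exon bases, 9.21% lie opposite LOXL1-AS1. For ELN the share opposite ELN-AS1 was 2.52%, for LOX opposite SRFBP1 2.49%, for FBN2 opposite SLC27A6 0.424% and for EFEMP2 opposite MUS81 0.204%. The strand setting of the read counting is not given in the sources used here, so reads of these stretches may belong to either gene.

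In Diff against U87, 3 of the 6 tested genes other than FBLN5 were called lower (FBN1, LOX and FBN2) and 0 higher, where limma called 6.36% of all tested genes lower and 5.92% higher. Their median log2 fold change was -0.98, beside -0.04 over all tested genes. In GSCs against U87, 1 of the 6 was called lower (FBN1), where 7.53% of all genes were called lower and 9.52% higher, and the median was -0.38 beside 0.02. At an adjusted p under 0.05 without a fold limit, 5 of the 6 passed in each of these comparisons, 1 of them higher in GSCs (ELN), where 39.4% of all genes passed in Diff and 48.6% in GSCs. The 2 comparisons share the U87 libraries.

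In Diff against GSCs all 7 tested genes had a log2 fold change below 0, with a median of -0.62 beside -0.06 over all tested genes. LOX and FBLN5 were called lower and 0 were called higher, against 5.36% and 2.66% of all genes. Without the fold limit 6 of the 7 passed, against 34.8% of all genes. The libraries of the lines did not overlap for 6 of the 7 genes, against 46.7% of all tested genes, with LOXL1 as the exception. Without GSCs replicate 3 the same numbers of these genes were called in each comparison. In Diff against U87 they did not overlap for 5 of the 6 genes counted (ELN did), against 55.2%, and in GSCs against U87 for 5 of the 6 (EFEMP2 did), against 55.8%.

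**Figure D2:**
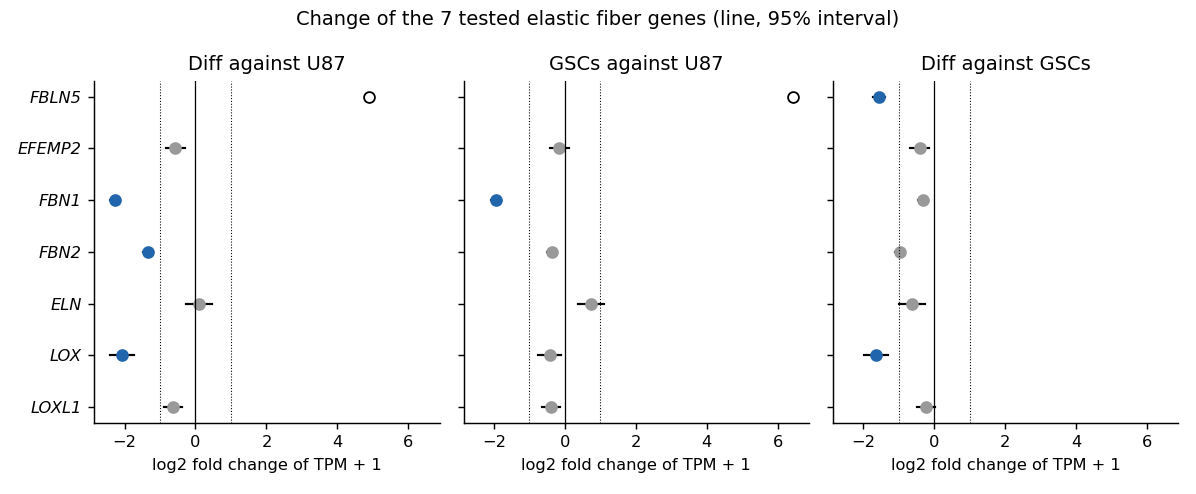
Log2 fold change of TPM + 1 for the 7 tested genes in the 3 comparisons, with 95% intervals from limma as lines; blue points were called lower, grey points were not called, dotted lines mark the fold limit of 1, and open points are FBLN5 where its values chose it and no interval is given. FBN1 lies left of the limit in both comparisons with U87, and LOX lies left of it in both comparisons of Diff.

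The order of levels among the genes differed by line. In U87 it was FBN1, LOX, LOXL1, EFEMP2 and FBN2, and no neighbours in this order overlapped. In GSCs LOX, FBLN5 and LOXL1 overlapped at the top, followed by FBN1, EFEMP2 and FBN2 without overlap. In Diff the order was LOXL1, FBN1, LOX, FBLN5, EFEMP2 and FBN2, again without overlap between neighbours. The summed level of the 9 genes was 837 ± 42.3 TPM in U87 (SD, n = 3), 619 ± 63.2 in GSCs and 339 ± 9.32 in Diff. FBLN5 made up 0.0768% of this sum in U87, 23.1% in GSCs and 14.0% in Diff. FBN1 went from 39.7% in U87 to 13.9% in GSCs and 20.1% in Diff. LOX held 27.3% in U87, 27.5% in GSCs and 15.7% in Diff, and LOXL1 held 21.7%, 22.2% and 34.3%. Thus FBN1 was the largest item in U87, LOX, FBLN5 and LOXL1 the 3 largest in GSCs, and LOXL1 the largest in Diff. These shares rest on FBLN5, which was chosen for its level, and are a description.

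**Figure D3:**
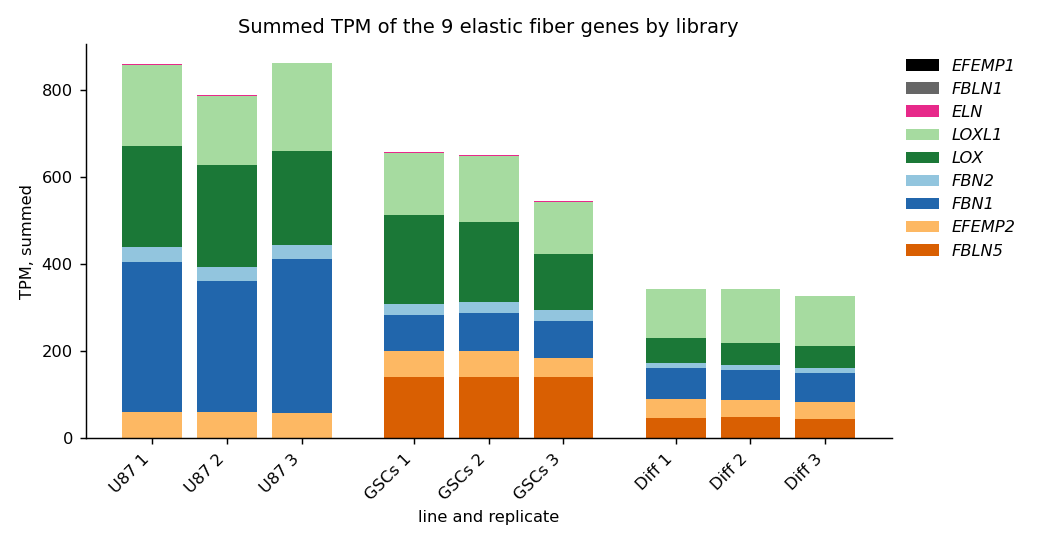
Summed TPM of the 9 genes in each library, divided by gene; each bar is a library and the axis starts at 0. The bars run from 788 to 863 TPM in U87, from 546 to 659 in GSCs and from 328 to 344 in Diff, and FBLN5 is visible only in GSCs and Diff.

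Among 20 further genes of microfibrils and elastic fibers, 13 were tested. In Diff against U87, 2 of the 13 were called lower and 0 higher by limma, beside 6.36% and 5.92% of all tested genes. MFAP2, a small glycoprotein of microfibrils, fell by 1.63 ± 0.0970 on the log2 scale (SE, adjusted p = 3.27e-06, limma), and LTBP1, a latent TGF-beta binding protein, fell by 1.00 ± 0.0555 (adjusted p = 2.20e-06), at the limit. The median of the 13 was -0.34. In GSCs against U87, 3 were called lower and 1 higher, beside 7.53% and 9.52% of all genes, with a median of -0.61.

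LTBP3 and LTBP4, both binding proteins of latent TGF-beta, lay apart in opposite directions in GSCs. LTBP3 measured 105.42, 93.40 and 107.57 TPM in U87, 16.39, 19.30 and 14.998 in GSCs and 83.85, 93.91 and 83.84 in Diff. LTBP4 measured 42.16, 37.24 and 37.88 TPM in U87, 129.10, 140.91 and 96.76 in GSCs and 30.38, 31.73 and 29.70 in Diff. For both genes the GSCs libraries stood outside the range of the other 6. Against U87, the log2 fold change in GSCs was -2.53 ± 0.0978 for LTBP3 (adjusted p = 1.95e-07) and 1.60 ± 0.125 for LTBP4 (adjusted p = 1.08e-05). Also lower in GSCs were MFAP2 (-2.25, adjusted p = 3.47e-07) and VCAN, the proteoglycan versican (-1.48, adjusted p = 4.34e-06). In Diff against GSCs, LTBP3 (2.31) and VCAN (1.49) were called higher, and LTBP4 (-1.95), ADAMTS6 (-1.46) and THSD4 (-1.23) were called lower, 2 and 3 of the 13 beside 2.66% and 5.36% of all genes. ADAMTS6 and THSD4, also named ADAMTSL6, belong to a family of secreted proteases and related proteins that act on microfibrils. The median of the 13 in this comparison was 0.01.

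Of 6 other genes of cross-linking, 5 were tested. LOXL2 and LOXL3, further lysyl oxidases, were called lower in both comparisons with U87. LOXL2 measured 347.40, 354.35 and 332.35 TPM in U87, 36.56, 35.79 and 24.87 in GSCs and 35.20, 40.35 and 38.26 in Diff. Its log2 fold change was -3.39 ± 0.132 in GSCs (SE, adjusted p = 2.04e-07) and -3.15 ± 0.132 in Diff (adjusted p = 5.15e-07), larger in size than that of LOX in either. LOXL3 gave -1.42 in GSCs (adjusted p = 1.12e-05) and -2.21 in Diff (adjusted p = 1.29e-06). BMP1, the protease that activates the precursor of LOX, was at 31.4 ± 0.945 TPM in U87, 7.49 ± 1.51 in GSCs and 32.8 ± 1.94 in Diff (SD, n = 3). BMP1 was called lower in GSCs against U87 (-1.95, adjusted p = 3.17e-06) and higher in Diff against GSCs (2.01, adjusted p = 8.81e-06). The counts of the 5 were thus 2 lower in Diff (6.36% of all tested genes) and 3 lower in GSCs (7.53%) against U87, with medians of -0.20 and -1.42, and 1 higher in Diff against GSCs (2.66%), with a median of 0.24.

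Of 9 genes whose proteases can cleave elastin, 5 were tested. MMP2, gelatinase A, had the highest level of them, with means of 1472 TPM in U87, 757 in GSCs and 1510 in Diff. Its log2 fold change in GSCs against U87 was -0.96 (adjusted p = 1.85e-06, limma), just inside the fold limit, and 0.99 in Diff against GSCs. CTSK, cathepsin K, measured 39.47, 40.67 and 34.55 TPM in U87, 586.86, 523.60 and 651.75 in GSCs and 612.26, 513.35 and 522.79 in Diff. It rose by 3.90 ± 0.103 on the log2 scale in GSCs (SE, adjusted p = 3.04e-08) and by 3.81 ± 0.103 in Diff (adjusted p = 4.99e-08). CTSS, cathepsin S, rose by 1.07 in GSCs (adjusted p = 0.000109) and by 1.49 in Diff (adjusted p = 2.02e-05). CTSL, cathepsin L, rose by 1.55 in GSCs (adjusted p = 2.31e-07), and its value in Diff, 0.999, was just inside the fold limit. The counts of the 5 were 2 higher and 0 lower in Diff against U87 (5.92% and 6.36% of all tested genes) and 3 higher and 0 lower in GSCs (9.52% and 7.53%), with medians of 1.00 and 1.07. In Diff against GSCs 0 of the 5 were called by limma, beside 2.66% of all genes called higher and 5.36% lower. At an adjusted p under 0.05 alone 3 of the 5 passed (34.8% of all genes), and the median was 0.29.

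**Figure D4:**
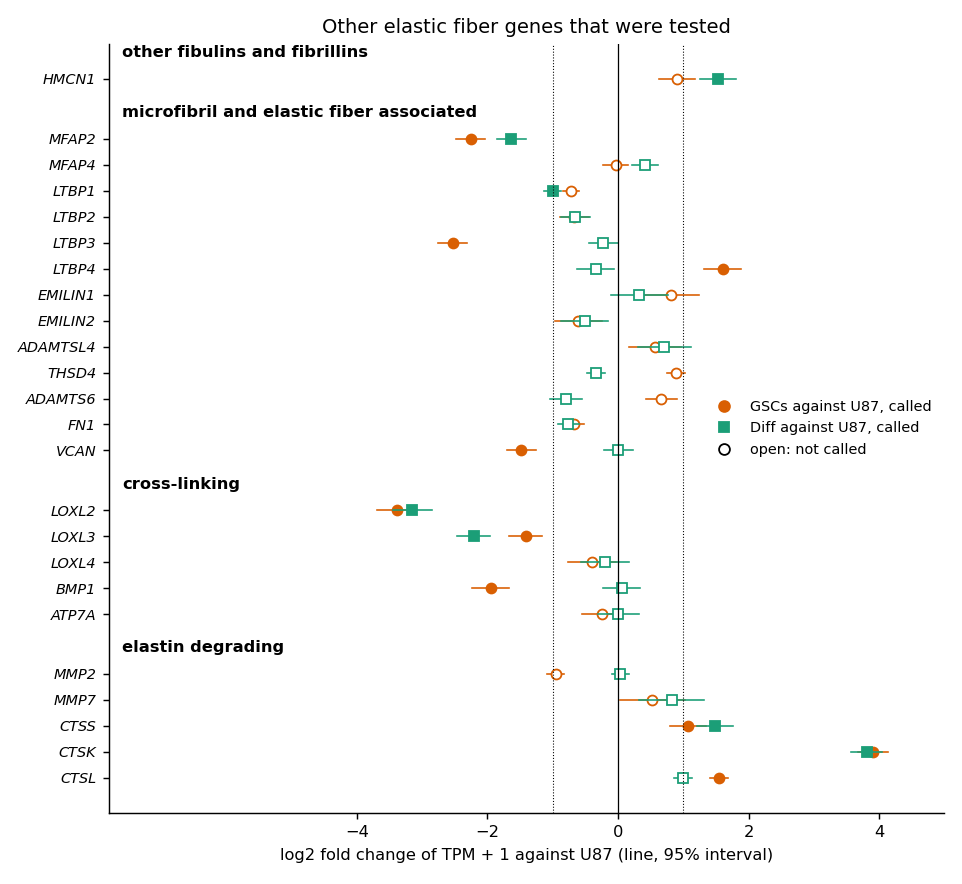
Log2 fold change of TPM + 1 against U87 for the 24 tested genes of the 4 further lists, with 95% intervals from limma; circles are GSCs, squares are Diff, filled points were called and open points were not, and dotted lines mark the fold limit of 1. LOXL2 and LOXL3 lie to the left in both lines and CTSK to the right, whereas LTBP3, LTBP4, VCAN and BMP1 pass the limit in GSCs and not in Diff.

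To see whether neighbouring genes moved as well, each tested member was set beside its 24 nearest tested genes, 12 on each side, of 16307 that could be placed on the annotation. Around FBLN5 the median log2 fold change of neighbours was -0.08 in GSCs and -0.02 in Diff against U87, and the highest neighbour reached 1.27 and 1.35. That FBLN5 itself lay above them follows from its choice by these values and is no result. FBN1 lay below all 24 neighbours in both comparisons, whose medians were -0.26 and -0.46. Its 12 neighbours at higher coordinates were all below 0, from -1.38 to -0.22 in GSCs and from -1.62 to -0.33 in Diff. Those at lower coordinates ran from -0.85 to 1.14 in GSCs and from -1.11 to 0.84 in Diff. Whether FBN1 fell together with the stretch at higher coordinates was not tested. LOX lay below all 24 in Diff against U87 (median 0.08), and 4 lay below it in GSCs. FBN2 had 1 neighbour below it in Diff and 8 in GSCs. ELN lay inside the range of its neighbours, of which 17 were below it in GSCs and 6 in Diff, and their medians were above 0 at 0.54 and 0.32. EFEMP2 also lay within its neighbours, whose medians were -0.48 in GSCs and -0.39 in Diff. LOXL1 lay within its neighbours as well, with medians of -0.04 and -0.05. In Diff against GSCs, FBLN5 and FBN2 lay below all 24 neighbours.

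The genes with the profile most like each member were found by the root mean square difference between log2 profiles centred over the 9 libraries, among 13471 genes with a mean TPM over 5. For FBLN5 these were CEACAMP5 (0.320), EDN1 (0.343) and PSG10P (0.362). EDN1 encodes the precursor of the vasoconstrictor endothelin-1 and averaged 0.546 TPM in U87, 197 in GSCs and 38.1 in Diff. CEACAMP5 and PSG10P are pseudogenes of a family with near-identical copies, so their values are uncertain. The closest gene was EIF1AD for FBN1 (0.0895), KCNMA1 for FBN2 (0.0565), SPATA2L for EFEMP2 (0.0646), CLSTN3 for ELN (0.0852), ADM for LOX (0.0795) and JUN for LOXL1 (0.0633). ADM encodes the peptide adrenomedullin and averaged 107 TPM in U87, 72.6 in GSCs and 22.3 in Diff, following LOX at a lower level. These likenesses describe 9 libraries in 3 groups, so that they rest mainly on the 3 group means.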

How the data were processed

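RNA-seq was carried out on 3 libraries each of U87, GSCs and Diff. The deposited table holds, for 60606 genes, TPM that the authors turned into log2(TPM + 1); transformed back, each library summed to 1000000 TPM, so read depth is not kept and no counting error could be given. The submitters' processing notes name FastQC 0.11.9, Trimmomatic 0.39, HISAT2 2.2.1, featureCounts 2.0.5, R 4.2.0 and GRCh38, without roles; annotation and strand setting are not given in the sources used here. The sample records describe removal of ribosomal RNA and a directional kit, the paper's methods oligo(dT) enrichment.

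The deposited log2 values of 22909 genes, those whose mean TPM exceeded 1, entered 1 linear model of the 3 lines in limma 3.58.1 (R 4.3.3; moderated variances with a mean-variance trend), with Benjamini-Hochberg adjustment within each comparison. An exact permutation test of 3 against 3 cannot give a p under 0.10, so none was used. The script was first tested on simulated data. Positions and exon overlaps came from GENCODE 29, and promoters from RefSeq. Python 3.11.15 served for annotation and plots (pandas 2.3.3, matplotlib 3.10.9, numpy 2.4.6).

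The members, the further gene lists and the rule for named genes were chosen with earlier results of these data known. Named were the 9 members and up to 5 called genes with the largest change per list and comparison. The 3 genes most like FBLN5, the closest gene for each other member and up to 3 genes per marker list were also named. CTSL in Diff, MMP2 and PECAM1 were given after their values were seen. Alternatives were other pseudocounts, filters, scalings, limma settings and thresholds, a replicate block and the omission of each library.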

Additional observations from a re-analysis of the deposited data

Results flagged for a closer look

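For LOX and FBLN5 the change from U87 differed between Diff and GSCs. The difference was -1.65 for LOX and -1.56 for FBLN5 on the log2 scale (Diff minus GSCs, adjusted p = 6.48e-05 and 2.12e-06 from limma). Since both changes are taken against the same U87 libraries, this is the comparison of Diff with GSCs. LOX fell below U87 in Diff and was not called in GSCs, while FBLN5 was above U87 in both lines and less so in Diff. All 3 Diff libraries lay below all 3 GSCs libraries for both genes.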

How the results depend on the processing

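Of 358 values of single members under an alternative with a test, 355 kept their direction and their side of the call, 0 reversed and 3 became calls: ELN in GSCs against U87 with a pseudocount of 0.1 (1.08), and FBN2 in Diff against GSCs with a pseudocount of 0.1 (-1.02) and without GSCs replicate 1 (-1.01). With the pseudocount of 0.1, 2 members in place of 1 were thus called in GSCs against U87, and the log2 fold change of FBLN5 from U87 was 6.005 in Diff and 7.59 in GSCs. Without a fold limit (adjusted p alone), 5 members passed in either comparison with U87 and 6 in Diff against GSCs, in place of 3, 1 and 2; of all genes, 9024, 11129 and 7982 passed, in place of 2812, 3908 and 1836. With the filter at a mean TPM over 5, which tests fewer genes, 1583, 2254 and 1038 genes were called. Leaving out each library in turn called 3 members in Diff and 1 in GSCs when set against U87 and 2 to 3 in Diff against GSCs, and 2755 to 2811, 3797 to 3980 and 1773 to 1907 genes in all.

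Libraries with the same replicate number did not deviate together (correlations of -0.0416 to 0.0489 between their deviations from the line means), so no pairing by number was seen. This check cannot exclude a shared culture or preparation. A replicate block called 3, 1 and 2 members and 2810, 3917 and 1831 genes in all.

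TPM keeps no depth, so how far depth limits FBLN1, EFEMP1, ELN and FBLN5 in U87, all near or under 1 TPM, could not be computed. The spread rests on 3 libraries per line.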

Other observations

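Antisense genes of 2 members were read after their values were seen. ELN-AS1, opposite ELN, averaged 3.02 ± 0.473 TPM in U87 (SD, n = 3), 6.40 ± 1.16 in GSCs and 4.48 ± 1.24 in Diff, and was listed above ELN in each of the 9 libraries. It was not called in any comparison (log2 fold change 0.87 in GSCs against U87, adjusted p = 0.00435 from limma). LOXL1-AS1, opposite LOXL1, averaged 41.4 ± 5.22 TPM in U87, 23.1 ± 1.44 in GSCs and 17.9 ± 0.881 in Diff. LOXL1-AS1 fell in Diff against U87 by 1.16 ± 0.0946 on the log2 scale (SE, adjusted p = 2.06e-05), where LOXL1 itself was not called, and its value in GSCs against U87 was -0.81 (adjusted p = 0.000132). How many reads of the overlapping bases belong to each strand was not tested.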
